A study of Homo sapiens with 6 samples.

Results

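The genes examined here encode ATP-binding cassette (ABC) proteins, the human transporter superfamily that couples ATP hydrolysis to movement of lipids, drugs, peptides or metal complexes across membranes. Members were all rows whose symbol consists of ABC, a subfamily letter from A to G and a number, which gave 46 of the 23273 rows. The cells were L3.6pl, an established line from human pancreatic cancer, kept in MEM with fetal calf serum and without drug. The comparison was between 3 libraries of parental cells, labelled wild type, and 3 libraries of ARID1A-deficient cells, whose titles mark a knockout. ARID1A encodes a large subunit of SWI/SNF complexes, which move nucleosomes. The labels do not say whether the ARID1A-deficient libraries came from 1 clone, from several or from a pool, nor that libraries of a group came from separate cultures, so p-values measure only the spread between these libraries. The loss of ARID1A and any further difference of the derived cells cannot be told apart.

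ABC proteins carry conserved nucleotide-binding domains that clamp together on ATP, and most also have membrane-spanning domains that change shape with it. ABCA and ABCG members chiefly move sterols and phospholipids, ABCB and ABCC members include the exporters that lower the drug content of tumour cells, and ABCD members serve peroxisomes and lysosomes. ABCE and ABCF members have no membrane domain and act on ribosomes. In pancreatic ducts and their tumours, ABC exporters are studied for bile salt and conjugate export and for resistance to chemotherapy.

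Values were in FPKM, a unit that divides a gene's fragments by transcript length and library total, so levels of different genes can be set side by side. The library scaling used for the deposited values is not given. ARID1A itself measured 11.8, 6.76 and 9.42 FPKM in parental libraries 1, 2 and 3, in which order values are given throughout, against 3.55, 3.28 and 3.61 FPKM where it was deficient. It was 2.68-fold lower (limma adjusted p = 0.0061). The spacing of the lowest values put the depth of the libraries between 0.729 and 1.28 times that of parental library 1, with a summed depth of 2.8 in either group on this scale. Parental library 2 stood apart, since 4079 genes passed the test without it and 2043 with it. The epithelial markers EPCAM, KRT8, KRT18, KRT19 and CDH1 were measurable in every library, with summed levels of 3960 to 6110 FPKM in parental and 2650 to 3400 FPKM in ARID1A-deficient libraries, and 0 of 5 passed the test. The part of this shift in the ABC values was not tested. The hepatocyte markers ALB, APOB, SERPINA1, TTR and APOA1, chosen since bile exporters are typical of liver, summed to at most 0.983 FPKM in any library, with APOB and TTR listed at 0 in all 6. Fibroblast markers summed to at most 0.0585 FPKM. Endothelial markers summed to 8.45 to 10 and 8.66 to 9.23 FPKM, chiefly CDH5, and leukocyte markers to 8.51 to 9.87 and 5.95 to 7.72 FPKM, chiefly CD68. Among these, PECAM1 was 1.63-fold and CD68 1.42-fold lower in ARID1A-deficient libraries (limma adjusted p = 0.0254 and 0.0346), and their part in the ABC values was not tested. The other endothelial markers VWF, KDR and TEK did not exceed 0.0394 FPKM in any library. Of the other leukocyte markers, PTPRC, CD3E and LYZ did not exceed 0.0684 FPKM and CD14 did not exceed 0.339 FPKM.

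Of the 46 ABC genes, 21 had a mean of at least 0.5 FPKM and were tested, 21 were above 0 but under this minimum, and 4 were listed at 0 in every library. After Benjamini-Hochberg adjustment over all genes, 3 of the 21 tested members were higher in ARID1A-deficient libraries (ABCA5, ABCA7 and ABCA3) and 3 were lower (ABCG1, ABCC3 and ABCC1), while 15 did not pass. Among all 12826 genes tested, 7.82% were higher, 8.11% lower and 15.9% changed in either direction, against 28.6% of the tested ABC genes. The median log2 fold change was -0.10 for the tested members and -0.01 for all tested genes, on the log2(FPKM + 1) scale, which understates changes of low genes. On this scale the largest absolute log2 fold change of a tested member was 0.69, for ABCA5. With a pseudocount of 0.1 it was 1.2 for ABCA5 (limma adjusted p = 0.00721) and 0.80 for ABCA3, where the reported scale gave 0.38. The summed level of all ABC genes stood at 274, 271 and 260 FPKM in parental cells and at 242, 246 and 248 FPKM where ARID1A was deficient, without overlap. This sum was not tested. The FPKM of all rows together also differed between libraries, at 576681, 792796 and 632694 in parental and 620785, 725876 and 672974 in ARID1A-deficient ones. The lack of overlap holds only for FPKM as deposited. As a share of these totals, parental library 2 lies below ARID1A-deficient libraries 1 and 3, so the groups overlap.

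**Figure D1:**
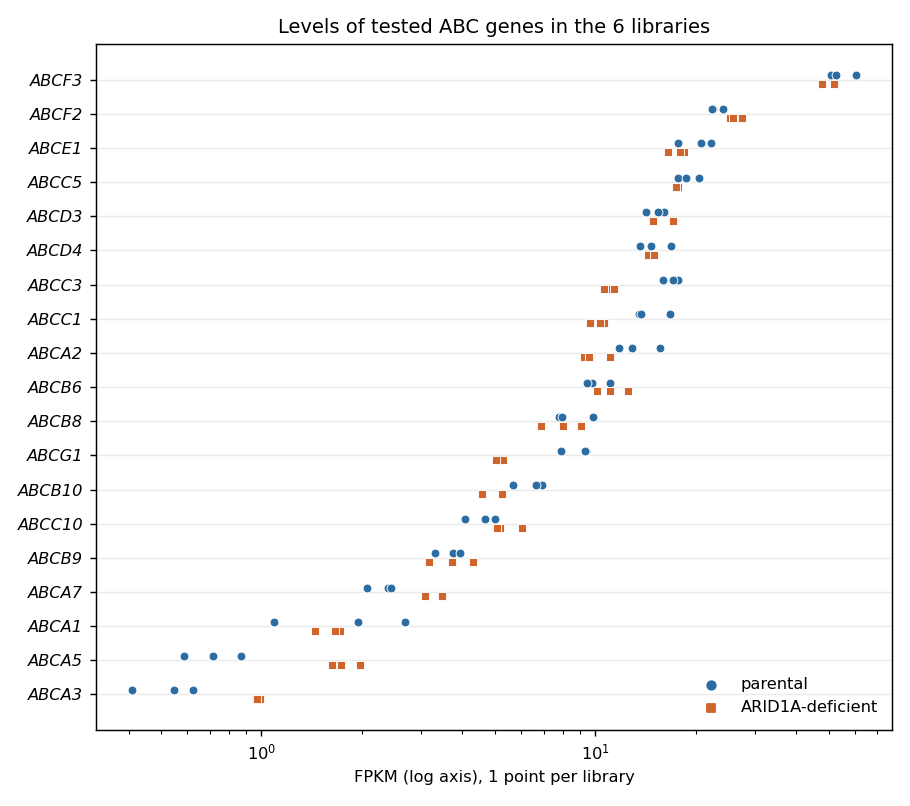
FPKM of the tested ABC genes described here on a log axis, ordered by mean, with 1 point per library (circles parental, squares ARID1A-deficient, 3 each). The levels run from about 0.752 FPKM on average for ABCA3 to 52.6 FPKM for ABCF3. The groups lie apart for the called genes ABCA3, ABCA5, ABCA7, ABCG1, ABCC1 and ABCC3. They also do not overlap for ABCA2, ABCB10, ABCC10 and ABCF2, and by a very small margin for ABCC5, which did not pass the test.

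The order of levels was led by the genes without a membrane domain. ABCF3 averaged 52.6 FPKM over the 6 libraries, ABCF2 24.7 and ABCE1 18.9 FPKM. Among the others, ABCC5 averaged 18.3, ABCD3 15.4, ABCD4 14.9 and ABCC3 14 FPKM, and in this order the library values of ABCE1 and ABCC5 overlapped, as did those of ABCD3, ABCD4 and ABCC3. The sterol exporter ABCA1 averaged 1.76 FPKM and the drug exporters ABCB1 and ABCG2 only 0.209 and 0.32 FPKM.

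Among the lipid exporters, ABCG1 fell and 3 ABCA genes rose. ABCG1, which moves cholesterol to lipoproteins and within the cell, measured 9.35, 7.9 and 9.29 FPKM in parental and 5.03, 5.3 and 5.04 FPKM in ARID1A-deficient libraries. The 3 ARID1A-deficient values lie close together and below every parental value. Averages of 8.85 ± 0.82 and 5.12 ± 0.151 FPKM (SD, n = 3 each) make a 1.73-fold decrease (log2 fold change -0.68, SE 0.10, limma adjusted p = 0.00437). Fewer cells with a transcript and less of it per cell cannot be told apart in such bulk samples. ABCA1, the exporter of cholesterol and phospholipid to apolipoprotein A-I, measured 2.7, 1.09 and 1.94 FPKM against 1.72, 1.45 and 1.66 FPKM. Its parental values spread more widely than the ARID1A-deficient ones and enclose them (log2 fold change -0.12, 95% interval -0.60 to 0.36, limma adjusted p = 0.754). ABCA2, an endolysosomal lipid transporter, was the highest of the ABCA genes with 15.6, 11.8 and 12.9 FPKM against 9.24, 9.56 and 11.1 FPKM. Its groups did not overlap, yet it missed the threshold (log2 fold change -0.39, limma adjusted p = 0.0827), and it passed without parental library 2 (adjusted p = 0.0162).

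ABCA5, a lysosomal and endosomal lipid transporter, measured 0.717, 0.587 and 0.871 FPKM in parental and 1.97, 1.73 and 1.63 FPKM in ARID1A-deficient libraries. Every ARID1A-deficient library was above every parental one, and the means of 0.725 ± 0.142 and 1.78 ± 0.176 FPKM (SD, n = 3 each) give a 2.45-fold increase (log2 fold change 0.69, SE 0.10, limma adjusted p = 0.0055). ABCA3, known for loading phospholipid into surfactant-storing organelles of the lung, measured 0.622, 0.547 and 0.41 FPKM against 0.992, 0.966 and 0.973 FPKM. The ARID1A-deficient values are almost equal, and the increase was 1.86-fold (log2 fold change 0.38, limma adjusted p = 0.0324). ABCA7, a phospholipid exporter linked to phagocytosis, measured 2.4, 2.44 and 2.07 FPKM against 3.08, 3.44 and 3.48 FPKM. That is a 1.45-fold increase with no overlap between groups (log2 fold change 0.39, limma adjusted p = 0.0379). ABCA3 and ABCA7 lost their calls in some fits that dropped 1 library, although their estimates kept a similar size. ABCA3 missed the threshold where parental library 3 or an ARID1A-deficient one was dropped (adjusted p up to 0.138). Its log2 fold change stayed between 0.32 and 0.42 over the 6 such fits. Of these fits, ABCA7 passed only in that without parental library 2 (adjusted p up to 0.168 in the others). Its log2 fold change stayed between 0.34 and 0.43. Across all genes, calls fell from 2043 to between 964 and 1576 whenever a library other than parental library 2 was dropped. ABCA5 and ABCG1 passed with every single library left out.

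Promoter windows from 250 bases before to 50 after the annotated start are shown for the 3 called members that the RefSeq table of GRCh38.p14 holds, which are those that rose. The windows are chr17:69327084-69327383 on the minus strand for ABCA5, chr16:2340679-2340978 on the minus strand for ABCA3 and chr19:1039857-1040156 on the plus strand for ABCA7. The deposited values were made on another build, so these positions are not those of the authors' files. Capitals mark the GC box GGGCGG, the CCAAT box CCAAT and the AP-1 site TGAGTCA, each sought on both strands, and no marked motifs overlap.
ABCA5: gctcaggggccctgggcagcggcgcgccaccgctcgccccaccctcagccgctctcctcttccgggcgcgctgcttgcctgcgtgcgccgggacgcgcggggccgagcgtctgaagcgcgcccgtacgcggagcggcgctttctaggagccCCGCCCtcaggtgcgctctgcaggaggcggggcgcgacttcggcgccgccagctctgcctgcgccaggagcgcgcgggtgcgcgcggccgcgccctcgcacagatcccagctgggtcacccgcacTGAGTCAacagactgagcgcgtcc
ABCA3: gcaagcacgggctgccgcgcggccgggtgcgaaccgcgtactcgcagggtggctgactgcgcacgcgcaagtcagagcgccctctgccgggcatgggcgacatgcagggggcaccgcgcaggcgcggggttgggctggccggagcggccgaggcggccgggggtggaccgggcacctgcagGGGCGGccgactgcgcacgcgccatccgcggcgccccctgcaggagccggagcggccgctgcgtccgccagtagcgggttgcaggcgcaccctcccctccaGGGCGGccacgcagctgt
ABCA7: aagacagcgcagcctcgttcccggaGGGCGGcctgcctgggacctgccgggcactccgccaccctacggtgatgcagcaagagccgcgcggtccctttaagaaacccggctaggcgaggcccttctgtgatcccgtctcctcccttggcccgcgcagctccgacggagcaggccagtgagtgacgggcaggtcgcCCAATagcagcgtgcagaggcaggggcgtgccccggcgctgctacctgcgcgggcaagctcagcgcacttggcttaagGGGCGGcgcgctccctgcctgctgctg
A GC box stands in each of the 3 windows, with 1 match in ABCA5 and 2 each in ABCA3 and ABCA7. The same letters occur in 44.9% of all 34796 distinct windows of this length, and in 24 of the 52 windows of the 35 ABC members with an entry. ABCA7 also has 1 CCAAT box (34.6% of all windows) and ABCA5 has 1 AP-1 site near the start (4.96% of all windows). The G and C content was 76.3%, 78 and 70% in this order, where the median of all windows was 58.7%. A match is a description of letters, and binding was not measured.

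ABCA5 lies on chromosome 17 beside ABCA10, ABCA6, ABCA9 and ABCA8, a row of related lipid transporter genes, and the other four were measured near the detection limit. ABCA10 was listed at 0.0214, 0.0273 and 0.0314 FPKM in parental and 0.168, 0.103 and 0.147 FPKM in ARID1A-deficient libraries. Whole fragments inferred from the spacing of these values were 2, 2 and 3 against 20, 7 and 11. ABCA10 was 5.22-fold higher, and passed limma when low genes were not filtered out (adjusted p = 0.0213), a call that needed libraries 1 and 3 of both groups (highest adjusted p = 0.0827 otherwise). ABCA9 had 8 fragments in the parental libraries together and 14 in the ARID1A-deficient ones, ABCA8 had 2 and 10, and ABCA6 had 1 and 7. None of these 3 genes passed limma without the filter (adjusted p = 0.376, 0.174 and 0.311). Their FPKM values did not overlap between groups, as was so in the higher direction for 14.9% of genes in this low range. For ABCA9 and ABCA6 that gap came from the scaling to depth, since parental library 3 and ARID1A-deficient library 2 held the same inferred number, 4 fragments of ABCA9 and 1 of ABCA6. Of the 20 tested genes nearest to this row, 5 were higher and 2 lower, and their log2 fold changes had a median of 0.05.

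The remaining lipid exporters were close to undetected. ABCA4, ABCA12, ABCA13, ABCG4, ABCG5 and ABCG8 did not exceed 0.0964 FPKM in any library. Inferred fragments were 10 against 14 for ABCA4, 3 against 3 for ABCA12, 4 against 12 for ABCA13 and 10 against 12 for ABCG4. ABCG5 and ABCG8, which together form the sterol exporter of bile and gut, had 4 against 1 and 1 against 0.

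ABCG1 and ABCA1 are textbook targets of liver X receptors, nuclear receptors that sense oxysterols and act with retinoid X receptors. In a list of 13 genes of this pathway, 11 were tested, with 0 higher, 3 lower and 8 not past the threshold, and the median log2 fold change was -0.26. Among all tested genes, 7.82% were higher and 8.11% lower. NR1H3, which encodes liver X receptor alpha, measured 14.8, 21.8 and 16.4 FPKM in parental and 8.28, 9.69 and 9.08 FPKM in ARID1A-deficient libraries, a 1.96-fold decrease (limma adjusted p = 0.00839). RXRA, the retinoid X receptor alpha gene, measured 51, 42.9 and 47.7 against 30.5, 29.9 and 33.1 FPKM, a 1.51-fold decrease (limma adjusted p = 0.00852). APOC1, an apolipoprotein gene and known target, averaged 3.15 ± 1.34 and 0.651 ± 0.365 FPKM (SD, n = 3 each), a 4.84-fold decrease (limma adjusted p = 0.0199). Other targets did not pass, with SREBF1 at 86.3 ± 7.06 and 81.3 ± 6.16 FPKM and LPCAT3 at 45.2 ± 0.782 and 40.3 ± 0.421 FPKM (SD, n = 3 each, limma adjusted p = 0.668 and 0.213). NR1H2, the gene for liver X receptor beta, measured 44 ± 8.3 and 55.3 ± 9.1 FPKM (SD, n = 3 each), which missed the limma threshold at an adjusted p of 0.269. Any part of NR1H3 and RXRA in the ABCG1 value was not tested.

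**Figure D2:**
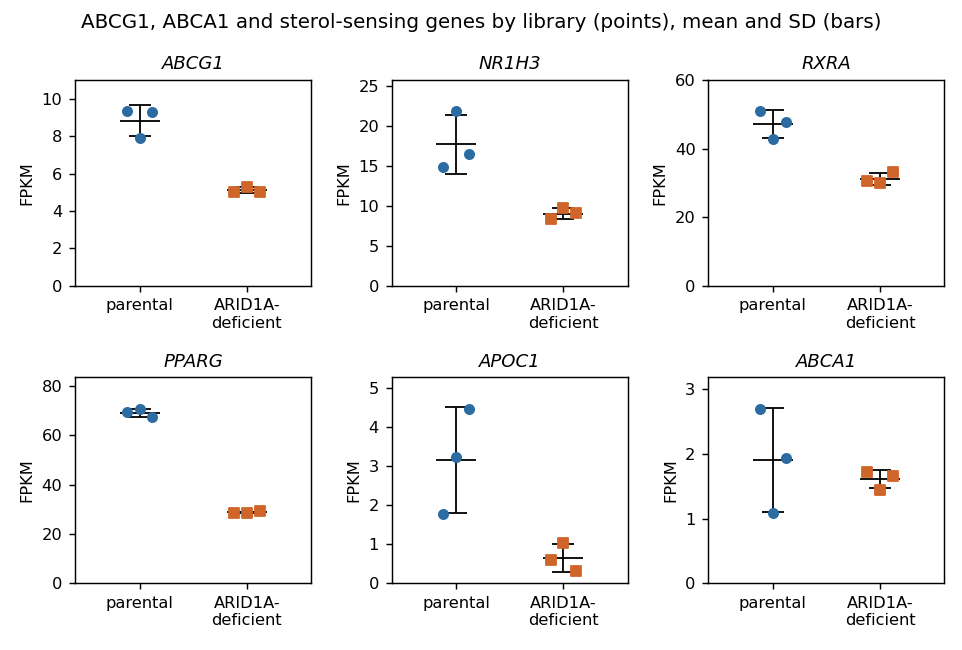
FPKM on linear axes from 0 for the exporters ABCG1 and ABCA1, the nuclear receptors NR1H3, RXRA and PPARG and the apolipoprotein gene APOC1, with points for the 3 libraries of each group and bars for mean and SD. The ARID1A-deficient libraries lie below all parental ones in every panel except that of ABCA1, where the parental values enclose them.

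Among exporters of drugs, conjugates and bile components, the 2 called members fell. ABCC3, which exports glucuronide conjugates and bile salts across the basolateral membrane, measured 17.7, 17.1 and 16 FPKM in parental and 11.2, 10.6 and 11.4 FPKM in ARID1A-deficient libraries. The 3 libraries of each group lie close together and the groups are well apart. The means of 16.9 ± 0.841 and 11.1 ± 0.421 FPKM (SD, n = 3 each) give a 1.53-fold decrease (log2 fold change -0.57, SE 0.08, limma adjusted p = 0.00416). ABCC3 passed with every single library left out (highest adjusted p = 0.0282). ABCC1, a broad exporter of glutathione conjugates and anticancer drugs, measured 16.8, 13.5 and 13.7 FPKM against 10.6, 9.63 and 10.3 FPKM. Averages of 14.7 ± 1.87 and 10.2 ± 0.489 FPKM make a 1.44-fold decrease (SD, n = 3 each, log2 fold change -0.48, limma adjusted p = 0.0241). Like ABCA3, ABCC1 missed the threshold where parental library 3 or an ARID1A-deficient one was dropped (adjusted p up to 0.102). Its log2 fold change lay between -0.53 and -0.45 in those fits. ABCC1 also missed the threshold with upper quartile scaling (adjusted p = 0.0578).

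ABCC5, an exporter of cyclic nucleotides and nucleotide analogues, was the highest of this group at 20.4, 17.7 and 18.7 FPKM in parental and 17.7, 17.5 and 17.5 FPKM in ARID1A-deficient libraries. The difference was small and did not pass (log2 fold change -0.10, 95% interval -0.29 to 0.09, limma adjusted p = 0.473). ABCC10, another exporter of lipophilic drugs, measured 5.02, 4.06 and 4.67 FPKM against 5.2, 5.08 and 6.03 FPKM and did not pass although its groups did not overlap (limma adjusted p = 0.27). Among all tested genes the groups did not overlap for 16.7% in the higher and 18.6% in the lower direction, against 5 and 8 of the 21 tested ABC genes.

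**Figure D3:**
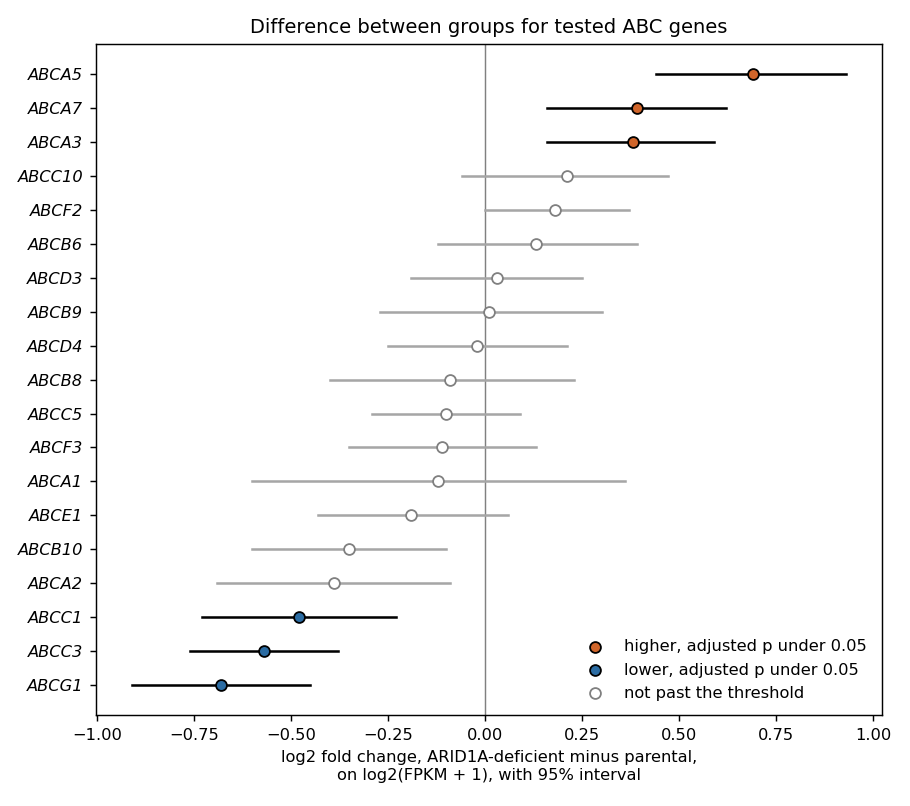
Log2 fold change (ARID1A-deficient minus parental, on log2(FPKM + 1)) with its 95% interval from limma for the tested ABC genes described here, filled where the adjusted p was under 0.05. ABCA5, ABCA7 and ABCA3 stand at the higher end (0.69, 0.39 and 0.38, or 1.2, 0.52 and 0.80 with a pseudocount of 0.1) and ABCG1, ABCC3 and ABCC1 at the lower end (-0.68, -0.57 and -0.48).

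Sensing factors of lipids, drugs and oxidants had 1 of 9 tested members higher and 2 lower. PPARG, a nuclear receptor of lipid storage, measured 69.4, 70.8 and 67.4 FPKM in parental and 28.7, 28.6 and 29.2 FPKM in ARID1A-deficient libraries, a 2.4-fold decrease (limma adjusted p = 0.000115). NFE2L2, the oxidant-responsive factor NRF2, averaged 39.3 ± 5.13 and 83.9 ± 6.57 FPKM, a 2.14-fold increase (SD, n = 3 each, limma adjusted p = 0.00192). Any part of NFE2L2 in the ABCC1 and ABCC3 values was not tested.

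The best known drug efflux genes were among the 21 members above 0 but under the minimum mean. Of these, 10 were higher in every ARID1A-deficient library than in any parental one and 2 were lower in every one, where 14.9% and 5.65% of the 5006 genes in this range did so. With low genes kept in the test, 3 of these members were higher (ABCC6, ABCC4 and ABCA10) and 2 lower (ABCB1 and ABCG2), against 6.97% and 5.98% of all 17832 genes then tested. The 17832 include the 12826 genes that reached the minimum mean, so these shares are not those of the low range. These members were described after their values were seen. The 10 that were higher in every ARID1A-deficient library include ABCA6, ABCA8, ABCA9 and ABCA10, which lie in 1 row on chromosome 17. Some of the 10 rest on few inferred fragments, with 0 against 4 for ABCB4, 1 against 7 for ABCA6 and 4 against 12 for ABCA13.

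ABCB1, the gene of the drug efflux pump P-glycoprotein, measured 0.421, 0.241 and 0.369 FPKM in parental and 0.0341, 0.0995 and 0.091 FPKM in ARID1A-deficient libraries. These values correspond to 29, 13 and 26 fragments against 3, 5 and 5, so the estimate rests on few reads. The level was 4.59-fold lower, and without the filter it passed (adjusted p = 0.0175), a call that needed parental library 3 and each ARID1A-deficient one (highest adjusted p = 0.0749 otherwise). ABCG2, the breast cancer resistance protein gene, measured 0.341, 0.494 and 0.622 FPKM against 0.146, 0.106 and 0.214 FPKM. With 22, 25 and 41 fragments against 12, 5 and 11, it was 3.13-fold lower (adjusted p = 0.0314 without the filter). Its call hung on the same 4 libraries (highest adjusted p = 0.116 where 1 of them was absent).

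ABCC4, an exporter of cyclic nucleotides and prostaglandins, went the other way, with 0.325, 0.193 and 0.182 FPKM in parental and 0.92, 0.526 and 0.597 FPKM in ARID1A-deficient libraries. The level was 2.92-fold higher (adjusted p = 0.0364 without the filter), which needed all 6 libraries to pass (highest adjusted p = 0.141 otherwise). ABCC6, the transporter gene mutated in pseudoxanthoma elasticum, was listed at 0.0133, 0.0511 and 0 FPKM in parental and 0.582, 0.531 and 0.513 FPKM in ARID1A-deficient libraries. The ARID1A-deficient values are close to each other and far above each parental value (log2 fold change 0.59 without the filter, SE 0.04, adjusted p = 0.000326, and 2.42 with a pseudocount of 0.1), and ABCC6 passed with every single library left out (highest adjusted p = 0.00555). ABCC6 has near-identical pseudogenes that can share its reads, so its level is uncertain. The row of ABCC6P1 measured 0, 0.0995 and 0.0763 FPKM against 0.0407, 0.0356 and 0.0652 FPKM, and ABCC6P2 was listed at 0 in all 6 libraries.

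ABCC2, the conjugate exporter of apical membranes, measured 0.135, 0.069 and 0.0794 FPKM against 0.201, 0.185 and 0.136 FPKM, or 20 fragments against 37, and did not pass (adjusted p = 0.148 without the filter). ABCB4, the phospholipid floppase of bile and the gene next to ABCB1 on chromosome 7, gave 0 fragments in the parental and 1, 1 and 2 in the ARID1A-deficient libraries. ABCB11, the bile salt export pump, gave 1 against 1, ABCB5 gave 0 against 2 and ABCC11 gave 7 against 5. At this depth no difference was detectable for these genes. ABCC13, listed under the family's symbols but known as a pseudogene in humans, ranged from 0 to 0.404 FPKM with overlapping groups.

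**Figure D4:**
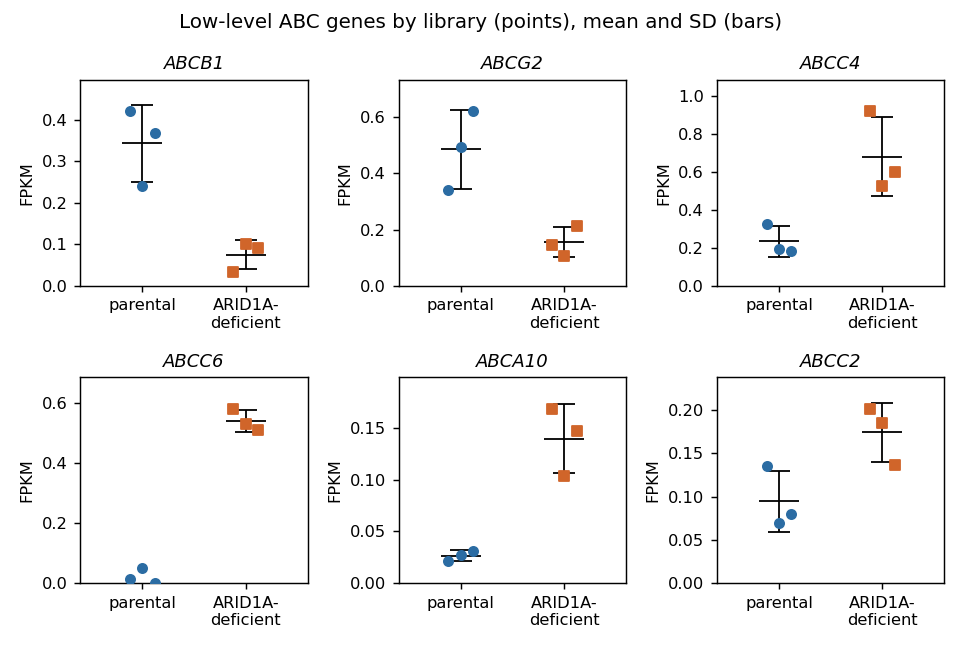
FPKM on linear axes from 0 for 6 ABC genes under the minimum mean of 0.5 FPKM, with points for the 3 libraries of each group and bars for mean and SD (no bars where a library is listed at 0). ABCB1 and ABCG2 are lower and ABCC4, ABCC6, ABCA10 and ABCC2 higher in each ARID1A-deficient library than in any parental one, the margin being smallest for ABCC2 (0.135 against 0.136 FPKM).

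Among transporters of peroxisomes and lysosomes, ABCD3, ABCD4 and ABCB9 did not pass limma, and none had an unadjusted p under 0.05. ABCD3, which brings branched-chain and dicarboxylic acyl groups into peroxisomes, measured 16.1, 15.4 and 14.2 FPKM in parental and 17.1, 14.9 and 14.9 FPKM in ARID1A-deficient libraries (log2 fold change 0.03, 95% interval -0.19 to 0.25). ABCD4, a lysosomal protein of cobalamin export, measured 13.6, 16.9 and 14.7 FPKM against 14.4, 15 and 15 FPKM (log2 fold change -0.02, 95% interval -0.25 to 0.21). Groups overlapped for both genes. ABCB9, a lysosomal peptide transporter, averaged 3.67 and 3.73 FPKM. Of 12 peroxisomal partner genes, all tested, 3 rose and 1 fell, led by ACSL1, an acyl-CoA synthetase gene that rose 2.42-fold, and CAT, the catalase gene that fell 1.31-fold (limma adjusted p = 0.0149 and 0.0262).

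Among mitochondrial and heme-linked members, ABCB10, ABCB6 and ABCB8 did not pass limma. ABCB10, an inner-membrane protein of heme synthesis, measured 6.92, 5.68 and 6.63 FPKM against 5.26, 4.57 and 4.59 FPKM, without overlap (log2 fold change -0.35, limma adjusted p = 0.0731). ABCB6, a porphyrin transporter, measured 9.79, 11.1 and 9.47 against 10.1, 12.5 and 11.1 FPKM, and ABCB8 averaged 8.53 and 7.97 FPKM. Both overlapped between groups. None of 13 partner genes of heme and iron-sulfur synthesis passed limma.

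The ribosome-associated members were the most abundant and did not pass. ABCF3 measured 51, 60.5 and 52.5 FPKM in parental and 47.9, 51.9 and 52 FPKM in ARID1A-deficient libraries (log2 fold change -0.11, 95% interval -0.35 to 0.13). ABCF2 measured 22.5, 24.2 and 22.4 FPKM against 25.4, 27.6 and 25.9 FPKM, with every ARID1A-deficient library above every parental one, at a limma adjusted p of 0.179. ABCE1, which splits ribosomes after termination, measured 22.2, 17.7 and 20.8 FPKM against 18.5, 16.5 and 17.9 FPKM (adjusted p = 0.291). Of its 11 measured partners in termination, recycling and initiation, 1 rose and 2 fell, with NUBP1 1.72-fold and GSPT1 1.37-fold lower (limma adjusted p = 0.00548 and 0.0161).

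ABCF1 was listed at 0 in all 6 libraries, although this translation factor is known to be broadly expressed. Of the 40 rows nearest to it in RefSeq order on chromosome 6, 39 were also listed at 0 throughout, where 23.3% of all rows were. An exact 0 there can be a failed estimate and gives no level. TAP1 and TAP2, ABC peptide transporters with other symbols, were likewise listed at 0 in every library. CFTR, the chloride channel of the ABCC subfamily that marks pancreatic duct cells, was also listed at 0 throughout, and the rows around it were not examined. ABCC9, ABCC12 and ABCD2 were the other members listed at 0. ABCC8, the sulfonylurea receptor of beta-cell potassium channels, reached at most 0.132 FPKM, with 6 fragments against 15.

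Neighbouring genes moved with some members and not with others. ABCC1 and ABCC6 lie side by side on chromosome 16, and of the 20 tested genes around them 10 were lower and 0 higher, and their log2 fold changes had a median of -0.46 beside -0.48 for ABCC1. The part of this shared shift in the ABCC1 value was not tested. ABCC6 was higher within the same stretch, and so was ABCA3, also on chromosome 16, whose 20 neighbours had a median of -0.43 with 4 lower and 0 higher. For ABCC3 the neighbours had a median of -0.04, with 3 higher and 3 lower, and for ABCG1 -0.17, with 3 higher and 5 lower. The neighbours of ABCA7 had a median of 0.20 with 3 higher, and those of ABCC4 0.28 with 6 higher, and their part in these 2 values was not tested.

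**Figure D5:**
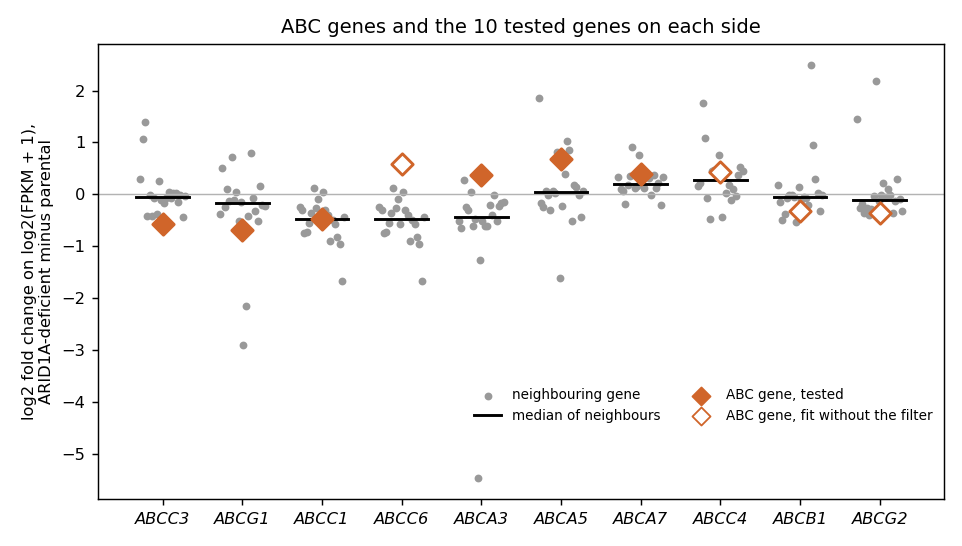
Log2 fold change of 10 ABC genes (diamonds, open where the gene entered only the fit without the filter) and of the 10 tested genes on each side (grey points, black line their median), with other ABC genes left out. ABCC1 sits on the median of its neighbours, whereas ABCC6 and ABCA3 lie above neighbours whose medians are -0.46 and -0.43.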

How the data were processed

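Messenger RNA of 6 L3.6pl libraries was measured, 3 parental and 3 ARID1A-deficient, grouped by sample title. The kit, TruSeq RNA version 2 per the labels' protocols, does not mark strand. The authors deposited 1 FPKM value per gene symbol and library. The submitters' processing notes name GRCh37 (hg19), Cuffdiff 2.2.1.5, Cuffnorm 2.2.1.2 and TopHat2 2.1.1. The sources used here give no annotation, filter, scaling option or fragment total. Symbols turned into dates (28 rows) were left out. Values of some members entered the counts and are not reported here.

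The log2(FPKM + 1) values were tested with limma 3.58.1 (R 4.3.3), with a mean-variance trend and robust moderation. All 6 libraries entered, with no term but group, and 12826 genes averaged 0.5 FPKM or more. P-values are two-sided and Benjamini-Hochberg adjusted with a threshold of 0.05. A fold is the ratio of group means in FPKM. Alternatives changed the pseudocount, filter, scaling, block, length covariate and libraries. Combinations of no filter with a pseudocount of 0.1 or a left-out library were added after the data were examined.

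The modal ratio of rows under 0.2 FPKM gave each library's relative depth, assuming values scaled to the library's total. Where a low gene's 6 values were whole multiples of 1 fragment on that scale (within 0.03), the smallest such whole numbers are given as inferred fragments, for 18 members. They cover counting error only.

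Gene order came from RefSeq (GRCh38), used only for neighbours. Transcript lengths covered 96.5% of tested genes. The members and gene lists were chosen with earlier results of these data known. Named are members past the threshold, ABCC3, the most abundant 2 of each role list, and up to 2 called genes of each other list. Other genes were named after their values were seen.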

Additional observations from a re-analysis of the deposited data

How the results depend on the processing

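ABCA5 passed in all 12 alternatives it entered, and ABCC3 and ABCG1 in all 13. The count of changed genes was 2043, and 4049 with the replicate block, 4145 with the length covariate and 964 to 4079 with single libraries left out. Higher ABC genes numbered 3, and 6 without the filter, 0 with a minimum mean of 3 FPKM (ABCA3, ABCA5 and ABCA7 lie under it), 1 with quantile normalization and 1 to 3 with single libraries left out. Lower ABC genes numbered 3, and 5 without the filter, 5 with the replicate block, 5 with the length covariate and 2 to 6 with single libraries left out. The cause was not tested, apart from the filter, which sets how many members are tested. ABCA3 and ABCA7 missed the threshold with quantile normalization (adjusted p = 0.0502 and 0.05). The small ABCD3 difference turned to -0.01 without parental library 3 and -0.03 without ARID1A-deficient library 1. That of ABCD4 turned to 0.02 with quantile normalization and 0.06 without parental library 2. Over single libraries left out, they ranged from -0.03 to 0.07 and from -0.09 to 0.06. Same-numbered libraries deviated together for numbers 1 and 2 (r = 0.219 and 0.217, across genes) but not for number 3 (r = -0.0131). A library near the mean of its group of 3 can give a low r even if paired, so these values leave pairing undecided. The reported fit has no block. With the block, ABCA2 passed (adjusted p = 0.0103). Depth limits the 21 members under 0.5 FPKM, several of which rest on 1 to 5 fragments per library.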

Other observations

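Genes that work beside the ABC exporters changed in both directions. Among carriers that take up organic ions, 9 of 18 rows were tested, with 1 higher and 4 lower. SLCO3A1, an organic anion carrier gene, averaged 4.51 ± 0.383 and 1.45 ± 0.0803 FPKM, a 3.11-fold decrease, and SLCO1B3, better known from hepatocytes, averaged 12.2 ± 1.33 and 5.62 ± 0.401 FPKM, a 2.17-fold decrease (SD, n = 3 each, limma adjusted p = 0.000428 and 0.00137). SLCO4A1, the carrier that rose, averaged 31.8 ± 2.47 and 55.8 ± 5.39 FPKM (limma adjusted p = 0.00379). Of 14 tested conjugation genes, 2 rose and 2 fell. UGT1A6, a glucuronosyltransferase gene whose exons overlap those of other UGT1A rows, fell 1.76-fold from 160 ± 12.3 to 91 ± 3.96 FPKM, and GSS, glutathione synthetase, fell 1.55-fold (limma adjusted p = 0.00413 and 0.0244).

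Nucleoside uptake and gemcitabine metabolism genes had 2 of 10 tested members lower and 0 higher. SLC29A3, an endolysosomal nucleoside carrier gene, fell 1.81-fold, whereas SLC29A1, the main uptake carrier, measured 19.7 ± 1.44 and 21.7 ± 2.35 FPKM (limma adjusted p = 0.00502 and 0.479).

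The pseudogene row ABCA11P, outside the family rule, measured 1.92, 1.81 and 2.31 FPKM in parental and 1.84, 1.41 and 1.09 FPKM in ARID1A-deficient libraries and did not pass limma (adjusted p = 0.193).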
